A study of Rattus norvegicus with 399 samples.

Results

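Lungs of female Sprague-Dawley rats given 500 ppm of 1,2-dichlorobenzene (1,2-DCB) were compared with lungs of their 0 ppm controls. 1,2-DCB is a chlorinated solvent, a benzene ring with chlorine atoms on adjacent carbons. The libraries were chosen by their labelled compound, tissue and concentration. This gave 4 libraries at 500 ppm and 10 at 0 ppm, 14 of the 399 libraries of the series, and 1 more 500 ppm library was left out because the submitters mark it for its alignment rate. The rats were 9 weeks old and tissues were taken on study day 5. The route and daily hours of exposure and the hour of collection were not given in the sources used here. Each library is a different rat, so replicates are animals. Rats at 1, 10, 30, 100 and 250 ppm (5 lung libraries each) entered the same fit. Of 2654 probes in the table, 2306 passed the filter on low counts and were tested. TempO-Seq, the assay used, ligates a pair of detector oligonucleotides on a chosen stretch of each transcript and counts the products, here for the Rat S1500+ panel.

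The lung meets inhaled and blood-borne chemicals with several cell types of unlike metabolic capacity. Club cells of the small airways are rich in cytochrome P450 enzymes, which can turn chlorinated benzenes into reactive epoxides and quinones. Glutathione conjugation and quinone reduction dispose of such products, and many of the genes involved are targets of NRF2, a transcription factor that is released from its inhibitor KEAP1 when electrophiles or oxidants modify KEAP1. Lung cells also run a circadian clock, in which ARNTL and its partners CLOCK or NPAS2 drive genes such as Dbp and Nr1d2, and NR1D proteins repress Arntl and Npas2 in turn.

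The libraries held 16.3 to 24.9 M counts at 500 ppm and 11.03 to 23.3 M at 0 ppm, with 2326 to 2369 and 2229 to 2353 probes detected. These are attenuation-adjusted counts, and for some probes every count is a multiple of a step above 1. Divided by these steps, the totals were 5.17 to 8.185 M at 500 ppm and 3.34 to 7.835 M at 0 ppm. S100a6, a calcium-binding protein, took 20.67 to 27.01% of the counts at 500 ppm and 14.02 to 22.58% at 0 ppm. Its step is 10, so these are shares of adjusted counts and not of reads. Bulk tissue was measured, so fewer cells of a type and less RNA per cell cannot be told apart. Markers of lung cells were present in all 14 libraries, with Cav1 (alveolar type 1 and endothelial cells) at 5829 to 7504 CPM at 500 ppm and 6039.7 to 8735 CPM at 0 ppm. Lamp3, of alveolar type 2 cells, was at 389 to 552 CPM at 500 ppm and 337 to 624 CPM at 0 ppm. Markers of striated muscle summed to 19.4 to 74.7 CPM at 500 ppm and 10.7 to 89.5 CPM at 0 ppm. The library left out held 0.326 M counts, or 0.0974 M when divided by the steps. It lay on the called side of the control mean for 54.4% of the called probes described next and beyond every control for 43 of them (21.1%). Among the 4 libraries used these shares were 98 to 100.0% and 77 to 88.2%. With it included 179 probes were called, against 8.85% of 2306 without it.

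At 500 ppm, 8.85% of the 2306 probes tested changed, 96 of them up (4.16%) and the others down (4.68%), by edgeR's quasi-likelihood test at a Benjamini-Hochberg adjusted p below 0.05. Antioxidant and conjugation genes were among the largest rises, and interferon-induced, collagen and mitotic genes among the falls. Clock genes moved in both directions. Of these probes 64 moved by more than 2-fold, 23 up and 41 down. All 4 exposed libraries lay beyond every control for 53 of the rises and 48 of the falls, and for 4.81% of all probes tested, called or not. The median log2 fold change of all probes tested was 0.000382. Leaving out the 500 ppm rat F605 left 5.16% called, the lowest share when any of the 14 libraries was left out. The gene lists that follow were chosen with earlier results of these data known. Their counts, set beside the shares of all probes, are a description and not a test.

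**Figure D1:**
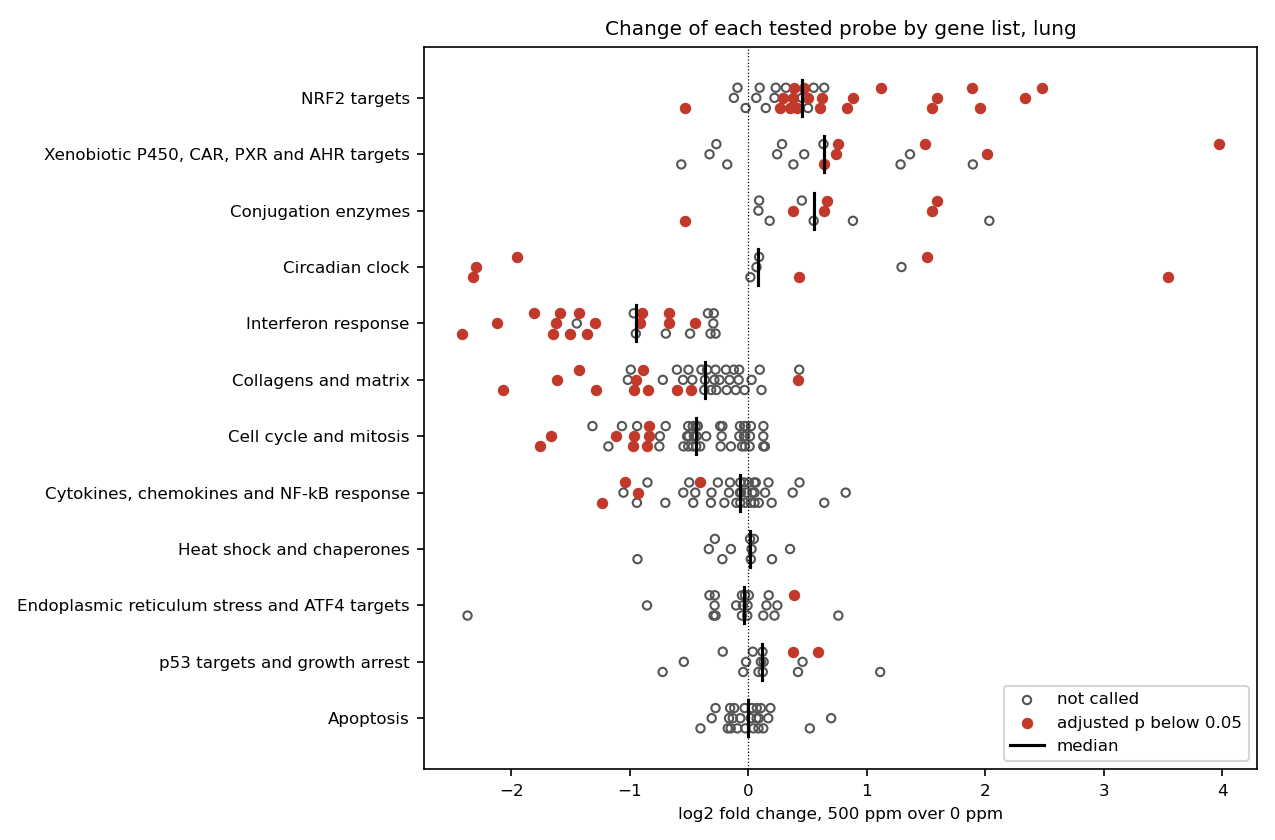
Log2 fold change in lung (500 ppm over 0 ppm, x axis) of each tested probe in 12 gene lists (rows). Filled points passed the adjusted p threshold of 0.05, open points did not, and bars mark medians. All 25 interferon probes lie below 0, and 29 of 33 NRF2 target probes lie above 0.

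Targets of NRF2 rose in 19 of 33 tested probes and fell in 1, with a median log2 fold change of 0.45. The fall was Gsta4, an alpha glutathione transferase, at -0.53 ± 0.15 (adjusted p = 0.0206 by edgeR), named after its value was seen. Nqo1, which reduces quinones without forming radicals, was at 36.4, 39.2, 34.05 and 38.2 CPM at 500 ppm, and its 0 ppm controls ran from 7.11 to 14.1 CPM with a median of 9.09. The groups did not overlap, and the exposed libraries were close to each other (36.96 ± 2.26 CPM against 10.04 ± 2.41 CPM, SD, n = 4 and 10). The log2 fold change was 1.88 ± 0.15 (SE, adjusted p = 2.45e-12 by edgeR). Srxn1, which restores oxidized peroxiredoxins, was at 13.3, 9.50, 8.56 and 8.70 CPM at 500 ppm, against 0.755 to 2.74 CPM (median 1.58) at 0 ppm. It had the highest fold change of the list, 2.47 ± 0.29 (adjusted p = 5.74e-08 by edgeR), with every exposed library above every control. Txnrd1, the cytosolic thioredoxin reductase, was at 133.5, 129.8, 126.2 and 132.6 CPM at 500 ppm, against 65.3 to 90.2 CPM (median 71.9) at 0 ppm. Its change was smaller, 0.83 ± 0.08 (adjusted p = 1.81e-09 by edgeR), and the groups again did not overlap. In the library left out, Nqo1 was at 6.41 CPM, which rests on 2 counts, too few to place it against the controls, and Gstp1 at 169.98 CPM (53 counts), above every control.

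Genes of glutathione synthesis and conjugation were called in part. Gclc, the catalytic subunit of the enzyme that limits glutathione synthesis, was at 476, 410.4, 418 and 586 CPM at 500 ppm, against 159.9 to 261 CPM (median 221) at 0 ppm. That is a log2 fold change of 1.12 ± 0.21 (adjusted p = 0.000243 by edgeR). In the library left out Gclc was at 112.3 CPM, below every control, from 35 counts at a step of 7. Single rats at lower concentrations reached or passed the 500 ppm range, F104 at 1 ppm with 539.8 CPM and F302 at 30 ppm with 743 CPM. The regulatory subunit Gclm had a log2 fold change of 0.50 ± 0.18 and did not pass (adjusted p = 0.0673 by edgeR). Gstp1, the pi-class glutathione transferase, was at 270.0, 256, 432 and 411 CPM at 500 ppm, against 95.8 to 139.2 CPM (median 121.95) at 0 ppm. Each exposed library was above every control, though the 4 fell into a lower and a higher pair (log2 fold change 1.55 ± 0.14, adjusted p = 6.75e-11 by edgeR). Of 13 conjugation enzyme probes 5 rose and 1, Gsta4, fell. Gsta3, an alpha transferase whose paralogs the probe may not separate, changed by 1.59 ± 0.32 (adjusted p = 0.000767). Gstz1, the zeta transferase of tyrosine breakdown, was at 46.9 ± 6.81 CPM at 500 ppm and 29.7 ± 3.28 CPM at 0 ppm (adjusted p = 3.77e-05 by edgeR), and Ugt1a1, which glucuronidates bilirubin, at 57.1 ± 8.26 CPM at 500 ppm and 36.6 ± 4.60 CPM at 0 ppm (adjusted p = 0.0163 by edgeR). The Ugt1a1 call was lost without rat F603 or F605.

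The antioxidant response element, the DNA motif that NRF2 binds with a small MAF partner, was searched as TGACNNNGC on both strands of RefSeq promoters of build GRCr8, from 250 bases before to 50 after each gene's start. Promoters were matched for 18 of the 20 NRF2 target genes called, and 5 of them (27.78%) held the motif, against 14.78% of 1766 promoters of tested genes and 12.17% of all 27457 promoters. Among all probes that rose, 14 of 78 matched promoters (17.95%) held the motif, near the share of tested genes. Among those that fell, 5 of 79 (6.33%) held it. The windows of Nqo1, Srxn1 and Gclc were without it, which says only that these letters are not in this stretch. Gstp1 and Me1 are shown, picked after their values were seen, with the motif in capitals. In Gstp1 (chr1:210769656-210769955, minus strand) it ran from base -61 to -53 relative to the start, and in Me1 (chr8:96540195-96540494, minus strand), which makes NADPH, from base -167 to -159. Both hold the same 9 letters. Gsta3, which also held the motif and is not shown, has TGACTTCGC from base -17 to -9.
Gstp1: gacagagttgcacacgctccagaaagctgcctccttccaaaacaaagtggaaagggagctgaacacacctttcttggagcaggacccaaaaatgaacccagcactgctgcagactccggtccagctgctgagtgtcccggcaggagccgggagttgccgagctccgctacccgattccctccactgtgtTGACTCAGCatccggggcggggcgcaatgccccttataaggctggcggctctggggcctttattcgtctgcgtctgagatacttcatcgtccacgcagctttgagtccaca
Me1: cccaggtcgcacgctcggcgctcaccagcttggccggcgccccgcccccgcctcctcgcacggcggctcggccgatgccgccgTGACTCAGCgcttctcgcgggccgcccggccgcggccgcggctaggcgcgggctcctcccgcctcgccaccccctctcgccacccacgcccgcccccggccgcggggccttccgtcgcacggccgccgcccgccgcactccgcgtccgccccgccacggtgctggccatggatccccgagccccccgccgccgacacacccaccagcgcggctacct

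Cytochrome P450 genes and targets of the xenobiotic receptors CAR, PXR and AHR rose in 6 of 18 tested probes and fell in 0, with a median log2 fold change of 0.64. Of all probes tested 4.16% rose. In this list 14 probes were above 0 and 4 below. Cyp1a1 was at 0 CPM in all 14 libraries. Cyp2b1 (-0.27, adjusted p = 0.309 by edgeR) and Cyp3a2 (1.36, adjusted p = 0.728 by edgeR, at most 2.90 CPM at 500 ppm) did not pass. Activation of these receptors was not tested. Abcb1b, a P-glycoprotein that pumps drugs out of cells, was at 72.6, 23.7, 43.02 and 79.8 CPM at 500 ppm, against 6.32 to 17.97 CPM (median 14.2) at 0 ppm. All 4 exposed libraries were higher but differed among themselves by more than the controls did (2.01 ± 0.26, adjusted p = 4.96e-07 by edgeR). Cyp2e1, a P450 that oxidizes small solvents, was at 207, 119.7, 159.7 and 337 CPM at 500 ppm, against 36.5 to 103.5 CPM (median 73.5) at 0 ppm. The groups did not overlap (1.49 ± 0.24, adjusted p = 4.41e-05 by edgeR). Aldh1a1, which oxidizes retinal and other aldehydes, was at 21443, 33030.2, 24762 and 27664 CPM at 500 ppm, against 11984 to 21484 CPM (median 14946) at 0 ppm. Its lowest exposed library lay within the control range (0.75 ± 0.16, adjusted p = 0.00142 by edgeR). So did the library left out, with Aldh1a1 at 18165 CPM from 5664 counts. Alas1, the first enzyme of heme synthesis, averaged 145.4 ± 4.79 CPM at 500 ppm and 87.2 ± 24 CPM at 0 ppm (adjusted p = 0.00304 by edgeR). It was the 1 gene of 6 called in the heme and red cell list, too few probes to read against the 8.85% called of all probes tested.

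Other large rises were of mixed function. Fetub, a secreted protease inhibitor, was at 8006, 4913, 4754 and 5500.0 CPM at 500 ppm, against 2010.3 to 4293 CPM (median 2744) at 0 ppm, a log2 fold change of 0.99 ± 0.17 (adjusted p = 9.93e-05 by edgeR). Pink1, a kinase that marks damaged mitochondria for removal, was at 65, 52.96, 59.8 and 88.2 CPM at 500 ppm, against 31.6 to 41.5 CPM (median 34.5) at 0 ppm. The groups did not overlap (0.90 ± 0.11, adjusted p = 2.29e-07 by edgeR). Myc, a growth-promoting transcription factor, was at 47.7 ± 6.32 CPM at 500 ppm and 26.7 ± 5.51 CPM at 0 ppm (adjusted p = 1.42e-05 by edgeR). Maff, a small MAF protein, was at 8.79 ± 1.31 CPM at 500 ppm and 3.90 ± 0.844 CPM at 0 ppm (adjusted p = 0.000702 by edgeR). With Plau, which fell by 0.51 on the log2 scale and lost its call in 15 of 23 alternatives, they were the called probes among 23 immediate early genes, 2 up and 1 down. That is 13.04% called, against 8.85% of all probes tested, and is not a result about that list. Tsku (1.27), Cdo1 (0.83), the enzyme that oxidizes cysteine, Azgp1 (0.80), Dcxr (0.69) and Pir (0.69) completed the larger rises by log2 fold change, with Ndrg2 (0.91), whose call was lost in 8 alternatives.

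Clock genes rose in 3 of 10 tested probes and fell in 3, with a median log2 fold change of 0.08. Dbp, a clock output transcription factor, was at 344, 641, 531 and 477 CPM at 500 ppm, against 28.4 to 64.1 CPM (median 39.4) at 0 ppm. It had the largest rise of the genes named (3.54 ± 0.39, adjusted p = 5.74e-08 by edgeR). Nr1d2, a clock repressor, was at 119.7, 144.5, 108.9 and 102.5 CPM at 500 ppm, against 21.8 to 61.3 CPM (median 46.8) at 0 ppm (1.51 ± 0.27, adjusted p = 0.000151 by edgeR). Arntl, the core activator also called Bmal1, was at 15.5, 8.34, 15.2 and 14.6 CPM at 500 ppm, against 50.4 to 83.1 CPM (median 65.3) at 0 ppm. Every exposed library was below every control (-2.29 ± 0.23, adjusted p = 1.81e-09 by edgeR). Npas2, its partner, was at 9.51, 8.90, 8.29 and 11.3 CPM at 500 ppm, against 39.7 to 62.7 CPM (median 47.6) at 0 ppm (-2.32 ± 0.17, adjusted p = 2.02e-12 by edgeR). Bhlhe40 (0.43) was the third rise and Nfil3 (-1.95) the third fall, both named after their values were seen. In the library left out, Arntl was at 64.1 and Npas2 at 41.7 CPM, inside the control range, and Dbp at 125.1 CPM, above it, from 20, 13 and 39 counts. The hour of collection of each group was not given in the sources used here, and its part in these values was not tested.

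**Figure D2:**
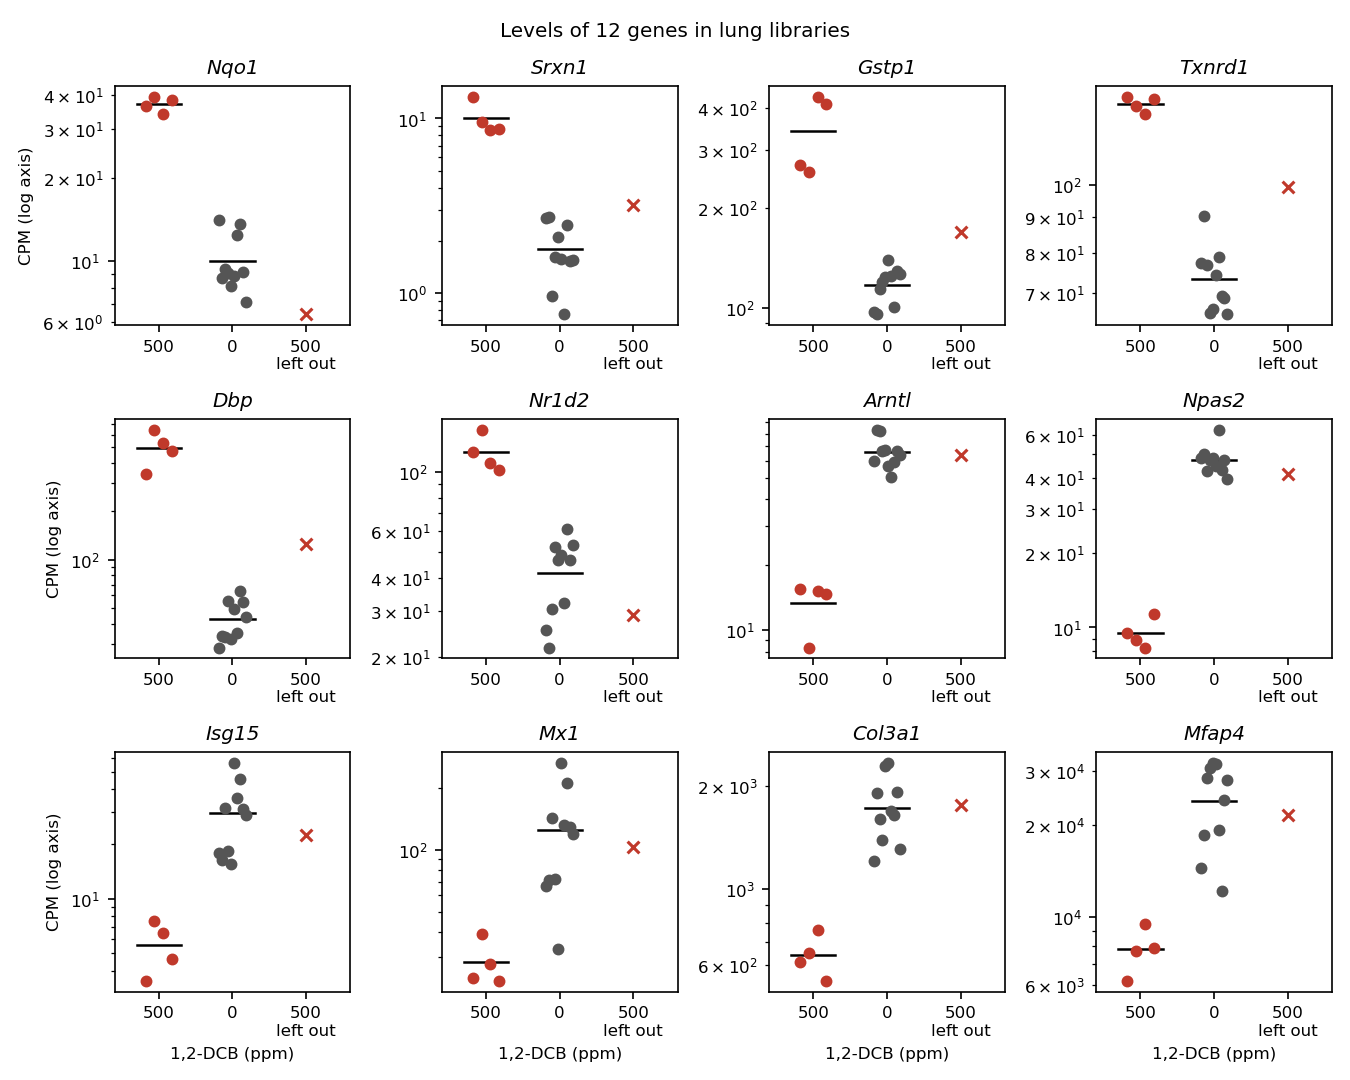
CPM (log axes) of 12 genes in each lung library at 500 ppm (red points), at 0 ppm (grey points) and in the 500 ppm library left out (red cross). Bars are means. The red points of Nqo1, Dbp, Npas2 and Isg15 do not overlap the grey ones, and the cross of Npas2 sits at 41.7 CPM among the grey points.

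Interferon-induced genes fell in 15 of 25 tested probes and rose in 0, and all 25 had a log2 fold change below 0 (median -0.95). These genes, switched on by interferons, encode proteins that block viral replication or tag proteins for degradation. Isg15, a ubiquitin-like modifier, was at 3.53, 7.56, 6.49 and 4.64 CPM at 500 ppm, against 15.6 to 55.8 CPM (median 30.2) at 0 ppm. No exposed library reached the lowest control (-2.41 ± 0.39, adjusted p = 4.41e-05 by edgeR). Mx1, a dynamin-like antiviral GTPase, was at 23.9, 38.9, 28.01 and 23.1 CPM at 500 ppm, against 32.95 to 263 CPM (median 124.5) at 0 ppm. The controls spread widely, and 1 exposed library lay among them (-2.12 ± 0.49, adjusted p = 0.00322 by edgeR). Usp18, which removes ISG15 from proteins, was at 7.31 ± 1.38 CPM at 500 ppm and 25.7 ± 12.9 CPM at 0 ppm (adjusted p = 0.000997 by edgeR). Oas1a, an enzyme of the antiviral RNA decay system, was at 29.7 ± 10.8 CPM at 500 ppm and 93.4 ± 36.2 CPM at 0 ppm (adjusted p = 0.000628 by edgeR). Herc6, an interferon-induced ligase, was at 35.9 ± 4.38 CPM at 500 ppm and 88.3 ± 33.9 CPM at 0 ppm (adjusted p = 0.00163 by edgeR). The library left out held Isg15 at 22.5 CPM, from 7 counts. The summed level of the 25 probes was 770.3 to 1143 CPM at 500 ppm and 909 to 2905 CPM at 0 ppm, so the sums overlapped.

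The interferon-stimulated response element was searched as GAAA, 2 bases and GAAA, on both strands of the same windows. Of 10 matched promoters of interferon genes called, 6 (60%) held it, against 4.02% of the 1766 promoters of tested genes and 3.77% of all promoters. Among probes that fell, 15 of 79 matched promoters (18.99%) held it, and among those that rose 0 of 78. Oas1a and Rsad2, which encodes the antiviral enzyme viperin, are shown because they held it and changed most of the 6. Rsad2 had a log2 fold change of -1.62 ± 0.35 (adjusted p = 0.00163 by edgeR) and was picked after its value was seen. Capitals mark the motif, which occurs as 2 overlapping copies in Oas1a (chr12:41330216-41330515, plus strand) and as 1 copy on the other strand in Rsad2 (chr6:48788071-48788370, minus strand).
Oas1a: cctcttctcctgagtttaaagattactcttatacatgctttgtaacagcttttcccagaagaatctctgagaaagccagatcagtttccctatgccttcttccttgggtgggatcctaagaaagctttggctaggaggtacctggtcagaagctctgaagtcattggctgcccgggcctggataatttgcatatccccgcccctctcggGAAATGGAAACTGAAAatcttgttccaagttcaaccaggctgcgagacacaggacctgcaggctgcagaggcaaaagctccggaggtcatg
Rsad2: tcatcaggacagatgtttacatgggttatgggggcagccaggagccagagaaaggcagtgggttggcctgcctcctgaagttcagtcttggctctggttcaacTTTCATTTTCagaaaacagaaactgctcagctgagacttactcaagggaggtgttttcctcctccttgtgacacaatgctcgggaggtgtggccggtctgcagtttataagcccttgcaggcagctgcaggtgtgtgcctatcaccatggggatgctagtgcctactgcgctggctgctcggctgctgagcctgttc

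Collagen and matrix genes fell in 10 of 39 tested probes and rose in 1, P4ha2 (0.42), a collagen hydroxylase named after its value was seen, with a median log2 fold change of -0.37. Col3a1, a fibrillar collagen of elastic tissues, was at 614, 652, 761 and 541 CPM at 500 ppm, against 1207 to 2327 CPM (median 1669) at 0 ppm. The groups did not overlap (-1.43 ± 0.19, adjusted p = 9.86e-07 by edgeR). Mfap4, a protein of elastic fibres, was at 6169.6, 7704, 9507 and 7905 CPM at 500 ppm, against 12192 to 31837 CPM (median 26164) at 0 ppm. Again no exposed library reached a control (-1.62 ± 0.27, adjusted p = 7.81e-05 by edgeR). Col1a2, a chain of type I collagen, was at 323 ± 54.2 CPM at 500 ppm and 623 ± 139.4 CPM at 0 ppm (adjusted p = 9.93e-05 by edgeR). Sparc, a collagen-binding secreted protein, was at 549 ± 76.9 CPM at 500 ppm and 1019 ± 174 CPM at 0 ppm (adjusted p = 3.33e-05 by edgeR). Pcolce, which helps to trim procollagen, had a log2 fold change of -0.85 ± 0.14 (adjusted p = 4.41e-05). Tnc, a matrix protein of repair, and Loxl1, which crosslinks elastin, had log2 fold changes of -1.28 and -0.97, and the Loxl1 call was lost without rat F603. Nrep (-1.18), Lama3 (-1.07), a laminin chain of epithelial basement membrane, Mfap2 (-1.08), Enpp3 (-1.41), a nucleotide phosphodiesterase, and Cxcl12 (-1.04), a stromal chemokine, were among the other falls by log2 fold change.

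Fibroblast markers fell in 5 of 8 tested probes, with a median log2 fold change of -1.0002, but Col1a1, Col1a2, Col3a1 and Mfap4 are also in the matrix list. Their summed level was 7214 to 10822 CPM at 500 ppm and 14361 to 35140 CPM at 0 ppm, with no overlap, and Mfap4 held most of it. The library left out held Col3a1 at 1761 CPM and Mfap4 at 21552 CPM, both inside their control ranges. The fibroblast markers Dcn (log2 fold change 0.43) and Fn1 (-0.08) did not pass the test. Col1a1, the other chain of type I collagen, was at 0.116 to 0.415 CPM at 500 ppm and 0.519 to 2.35 CPM at 0 ppm, and its call was lost without rat F605. Club cell markers were called in 1 of 6 probes, Aldh1a1, too few probes to read against the 8.85% called of all probes tested. Summed, these markers were at 23964 to 35423 CPM at 500 ppm and 14584 to 23985 CPM at 0 ppm. Aldh1a1 alone held 81.2 to 93.6% of that sum, and the other 5 probes summed to 1684 to 2798 CPM at 500 ppm and 2337 to 3094 CPM at 0 ppm, with overlap. Cyp2b1, a P450 of these cells, had a log2 fold change of -0.27 and did not pass.

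**Figure D3:**
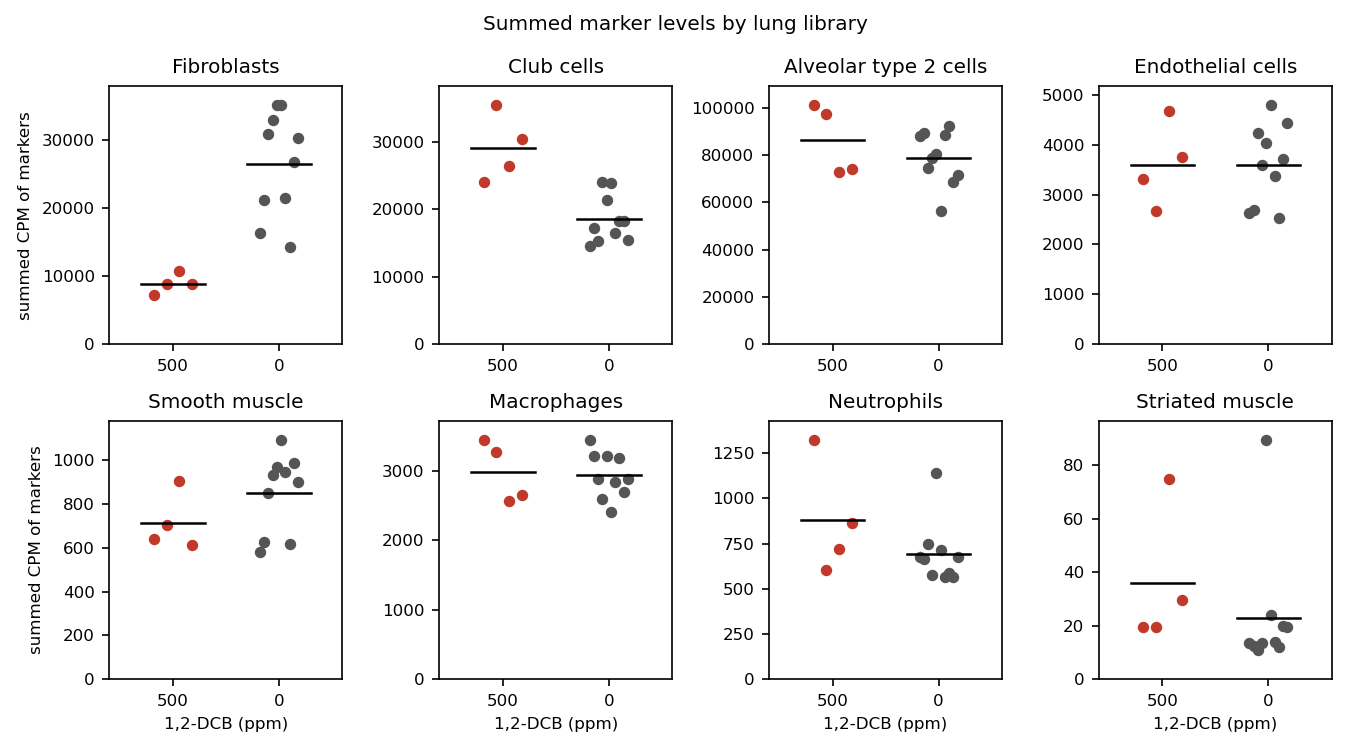
Summed CPM of 8 sets of cell type markers (y axes from 0) in each lung library at 500 ppm (red) and 0 ppm (grey). Bars are means. Fibroblast sums reach 10822 at 500 ppm and start at 14361 at 0 ppm, and the other sets shown overlap.

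Genes of the cell cycle and mitosis fell in 8 of 49 tested probes and rose in 0, and 42 had a log2 fold change below 0 (median -0.44). Cks2, a subunit of cyclin-dependent kinase complexes, was at 9.05, 9.63, 5.66 and 6.85 CPM at 500 ppm, against 11.1 to 24.6 CPM (median 13.9) at 0 ppm. The groups did not overlap (-0.97 ± 0.19, adjusted p = 0.000628 by edgeR). Cdc20, an activator of the anaphase ligase, was at 4.70 ± 1.10 CPM at 500 ppm and 8.40 ± 1.39 CPM at 0 ppm (adjusted p = 0.00392 by edgeR). Top2a, Mki67 and Kif22, all markers of dividing cells, fell by 1.67, 0.96 and 1.11 on the log2 scale at low levels, and each lost its call in 3 alternatives. In the thymus and cycling lymphoid list Mki67 was the 1 call of 4, and its summed level was 24.4 to 30.4 CPM at 500 ppm and 32.9 to 44.9 CPM at 0 ppm. The part of such cells in the cell cycle values was not tested. T cell markers held 0 calls of 6, too few probes to read against the 8.85% called of all probes tested.

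Fewer calls fell in the other groups, where counts are to be read against the 4.16% of all probes tested that rose and the 4.68% that fell. The share called in either direction, 8.85% of all probes, was 4.55% for endoplasmic reticulum stress, 5.13% for PPAR targets and 9.76% for cytokine and NF-kB genes, so these counts were near or below the background and are not a result about those lists. Cytokine and NF-kB genes fell in 4 of 41 probes, 2 of which measure Cxcl12, with Ccl17, a T cell attractant, and Relb, an NF-kB subunit. Acute phase and complement genes rose in 1 (Orm1) and fell in 2 (Fgg and C7) of 25. They summed to 5943 to 6912 CPM at 500 ppm and 8247 to 10311 CPM at 0 ppm, and C7 and Fgg held most of these sums. C7 was at 2693 to 3280 CPM at 500 ppm and 2985 to 5595 CPM at 0 ppm. Fgg was at 1060 to 2212 CPM at 500 ppm and 1908 to 4781 CPM at 0 ppm. The Orm1 call was lost without rat F605, and C7 lost its call in 12 alternatives and Fgg in 4. Hypoxia and glycolysis genes rose in 3 of 25, 2 probes of Aldoa and Aldoc, and fell in 1, Apln, a vascular peptide at 37.3 ± 7.83 CPM at 500 ppm and 63.2 ± 10.8 CPM at 0 ppm (adjusted p = 0.00202 by edgeR). The p53 targets rose in 2 of 16, Mdm2 (0.38) and Gadd45b (0.58), whose call was lost in 5 alternatives. Of 22 probes for endoplasmic reticulum stress 1 rose, Herpud1 (0.39). PPAR targets rose in 2 of 39 (Acot1 and Acaa1a), and fatty acid synthesis genes in 2 of 15 (Me1 and Acaca). Calls were lost in 12 alternatives for Acaa1a, 7 for Relb, 5 for Mrc1 and Igj, 4 for 1 Aldoa probe, 3 for Ccl17 and 2 for Acot1, Acaca and Herpud1, in each gene with at least 1 library left out. No probe was called among 11 heat shock, 18 TGF-beta, 18 glucocorticoid, 18 cholesterol, 10 proteasome, 13 mitochondrial and 26 apoptosis probes.

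Calls among markers of other cell types are to be read against the 8.85% of all probes tested that were called. With so few probes per type, these counts are not a result about the cell types. Endothelial markers held 1 call of 9 (Apln), macrophage markers 1 of 22 (Mrc1, 0.49), plasma cell and B cell markers 1 of 4 (Igj, the immunoglobulin J chain, -1.31) and hepatocyte markers 1 of 12 (Cyp2e1). Neutrophil markers held 0 of 7, dendritic cell 0 of 6, mast cell and platelet 0 of 7, smooth muscle 0 of 8, mesothelial 0 of 3, striated muscle 0 of 12, adipocyte 0 of 4, ciliated 0 of 1, alveolar type 1 0 of 2 and alveolar type 2 0 of 2. Pf4, a platelet chemokine, had a log2 fold change of 0.98 ± 0.38 and did not pass (adjusted p = 0.116 by edgeR). Cyp2a3, a P450 of airway cells, ran from 5.57 to 42.6 CPM at 500 ppm and 0.378 to 14.1 CPM at 0 ppm (1.89 ± 0.86, adjusted p = 0.197 by edgeR). Red cell and heme probes summed to 3986 to 6050.2 CPM at 500 ppm and 6228 to 16878 CPM at 0 ppm. Alas1, the 1 call in that list, rose and was at most 150.9 CPM, so probes that were not called held most of these sums. Of the 6 probes tested 3 were above 0 and 3 below.

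Below 500 ppm few probes were called in the same fit. No probe was called at 1, 10, 100 or 250 ppm by edgeR, with 2.65, 1.69, 3.17 and 4.68% of probes at an unadjusted p below 0.05. At 30 ppm 1 probe was called (0.0434%), Dbp, at 181.6 ± 151.5 CPM against 42.9 ± 12.3 CPM at 0 ppm (SD, n = 5 and 10, adjusted p = 0.00736 by edgeR), and the call was lost without rat F304 or F305. In 30 ppm rats F303, F304 and F305, Arntl was at 34.04, 21.65 and 35.88 CPM, below every control. Their Nr1d2 was at 69.08, 91.59 and 104.35 CPM, above every control. Dbp lay above and Npas2 below every control in these rats, and F301 and F302 lay within range for these genes. At 30 ppm Arntl, Npas2 and Nr1d2 were not called. At 250 ppm every rat was within the control range for Arntl and Nr1d2. Some rats at 10, 100 and 250 ppm were beyond every control for Dbp or Npas2. Nqo1 averaged 10.04 CPM at 0 ppm, then 11.3, 12.05, 13.7, 15.7 and 14.6 CPM at 1, 10, 30, 100 and 250 ppm and 36.96 CPM at 500 ppm, and none of the lower concentrations passed the test. Gstp1 averaged 117.2 CPM at 0 ppm, 116.4, 117.7, 126.99, 122.2 and 157 CPM at the lower concentrations and 343 CPM at 500 ppm. Col3a1 averaged 1727 CPM at 0 ppm, between 1807 and 2454 CPM at the lower concentrations and 642 CPM at 500 ppm. These comparisons share the 10 controls.

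**Figure D4:**
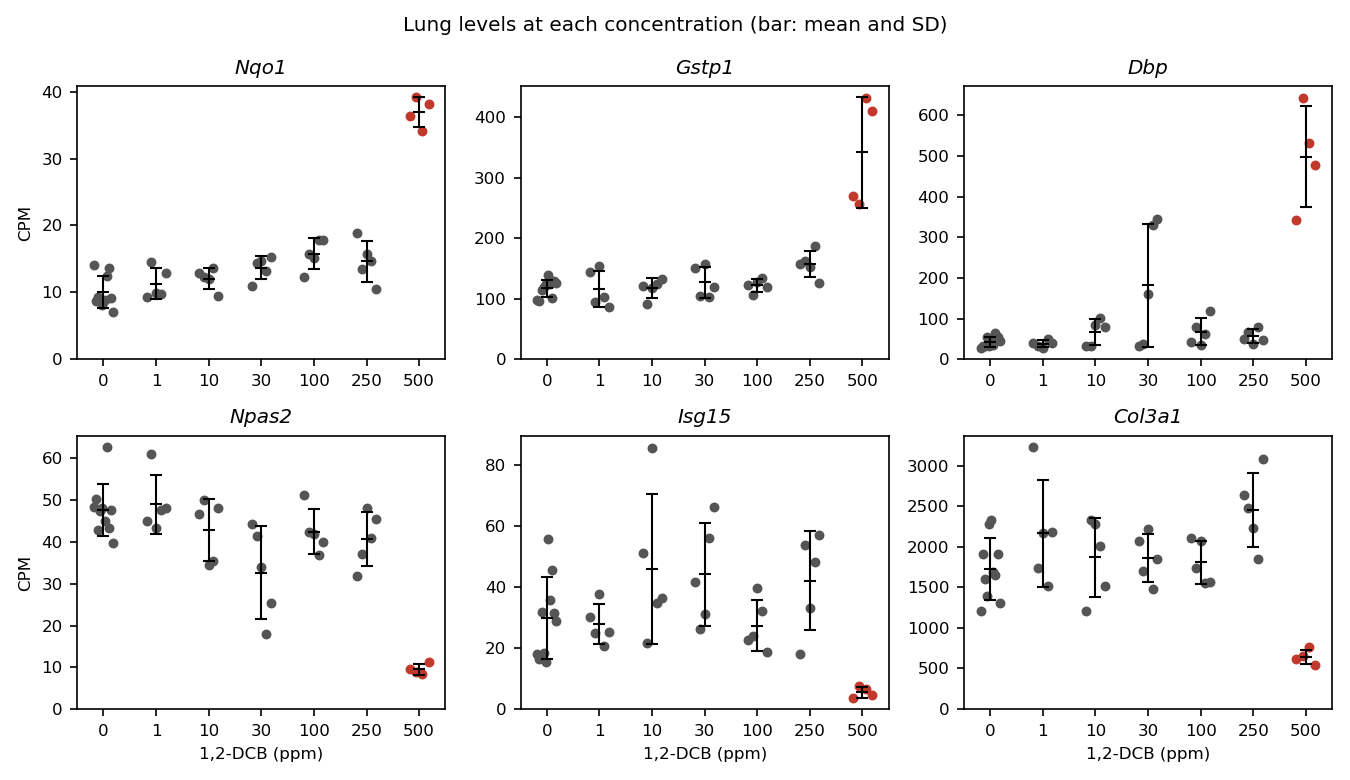
CPM (y axes from 0) of 6 genes by 1,2-DCB concentration in ppm (x axis) in lung. Points are libraries, with 500 ppm in red, and bars are means with SD. Nqo1 reaches 36.96 CPM at 500 ppm and at most 15.7 CPM on average below it.

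The same rats gave heart, kidney, liver and ovary, so the lung change was set against each in a joint fit. These tissues had 5 libraries at 500 ppm and 10 at 0 ppm, or 9 at 0 ppm in kidney. In that fit 5.8% of 2501 probes were called in lung, 10.3% in heart, 13% in kidney, 57% in liver and 7.68% in ovary. Among the lung calls described so far the change differed from that in heart for 5.88%, in kidney for 10.3%, in liver for 54.9% and in ovary for 22.1%. Of all 2501 probes, 1.28%, 2.48%, 39.7% and 3.68% differed in the same tests. The test of the lung minus heart difference had less power than that of the lung change: in simulated data it recovered 66.7% of 4-fold lung-only changes, and 91.7% of those in probes with at least 20 CPM in control lung. Power against kidney, liver and ovary was not simulated. By the rule for tissue differences 1 gene, Pink1, differed from all 4. Its log2 fold change was 0.94 in lung, against 0.09 in heart, 0.29 in kidney, -0.38 in liver and 0.24 in ovary, and the differences were 0.85, 0.66, 1.32 and 0.70 (largest adjusted p = 0.00082 by edgeR). Isg15 had log2 fold changes of -2.38 in lung, -1.52 in heart, -1.88 in kidney, -1.92 in liver and -1.28 in ovary, each past the test, and the differences between lung and the others did not pass (adjusted p = 0.329 to 0.767 by edgeR). Npas2 changed by -2.28 in lung, -3.25 in kidney and -3.11 in liver, differences of 0.97 and 0.82 (adjusted p = 0.0147 and 0.0073 by edgeR). Heart (-2.14) did not pass the test of a difference from lung (adjusted p = 0.948 by edgeR). The lung change differed from that in ovary (-0.47, difference -1.81, adjusted p = 2.94e-07 by edgeR). Cyp2e1 changed by 1.53 in lung and -1.36 in liver, a difference of 2.90 (adjusted p = 4.33e-08 by edgeR). It also changed by 1.77 in heart, 1.09 in kidney and 0.89 in ovary, and its lung change did not pass the test of a difference from these (adjusted p = 0.945, 0.703 and 0.496 by edgeR). Enpp3 had log2 fold changes of -1.37 in lung, 0.17 in heart and 0.19 in kidney, differences of -1.54 and -1.56 (adjusted p = 7.43e-05 and 1.35e-05 by edgeR), and its difference from ovary (-0.15) was -1.22 (adjusted p = 0.00115 by edgeR). In liver Enpp3 fell by 0.92 on the log2 scale (adjusted p = 6.13e-06 by edgeR), and the lung minus liver difference of -0.45 did not pass (adjusted p = 0.143 by edgeR). Gstp1 had log2 fold changes of 1.59 in lung, 0.32 in heart, 2.16 in kidney, 5.11 in liver and 0.51 in ovary. The lung change differed from those in heart, liver and ovary (adjusted p = 8.85e-05, 7.65e-21 and 0.000619 by edgeR), and the difference from kidney did not pass (adjusted p = 0.139 by edgeR).

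**Figure D5:**
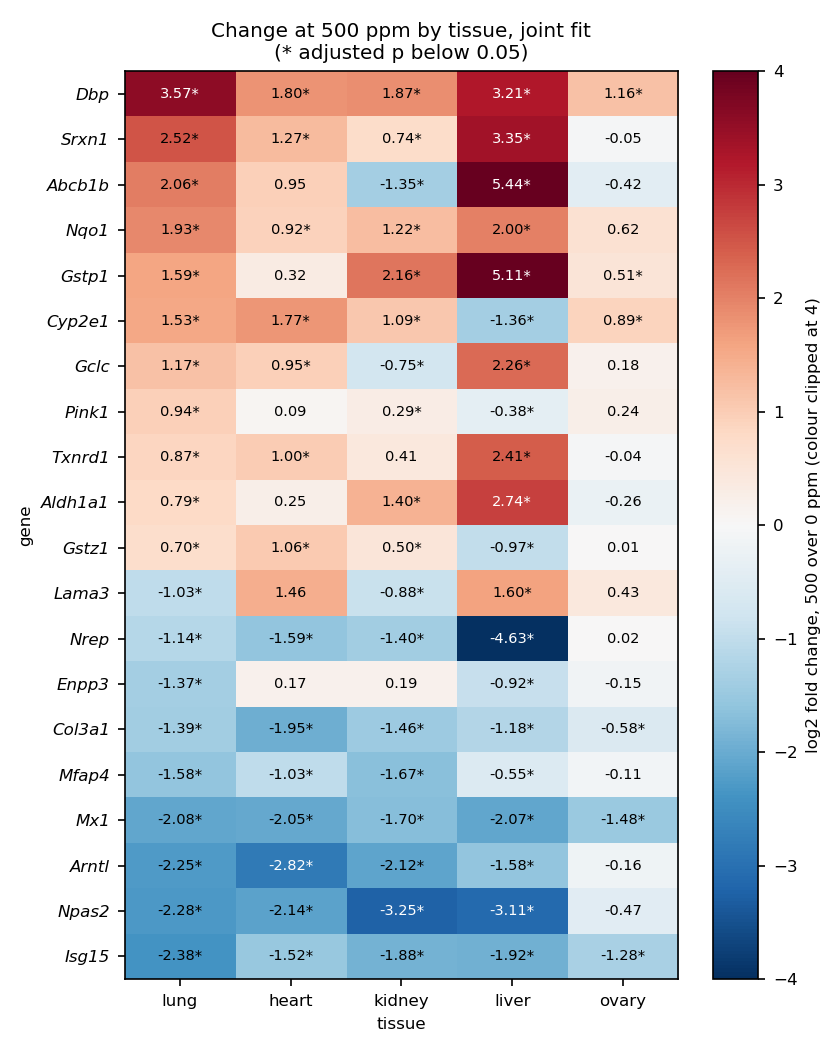
Log2 fold change (500 ppm over 0 ppm, colour and number) of 20 genes (rows) in 5 tissues (columns) from the joint fit of all tissues. Asterisks mark an adjusted p below 0.05. Isg15 and Mx1 are below 0 in every tissue, and Abcb1b is 2.06 in lung and -1.35 in kidney.

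Lungs of rats given 800 ppm of 1,4-dichlorobenzene, the isomer with chlorine atoms on opposite carbons, were set beside these with their own controls (5 and 8 libraries). The concentrations differ, so no test was made. There 5.91% of 2334 probes were called. The 2 comparisons called 34 probes in common, 16.67% of the 1,2-DCB calls and 24.64% of the 1,4-DCB calls, and 33 of them had the same sign, Sepw1 being the exception (-0.44 with 1,2-DCB and 0.35 with 1,4-DCB). Clock genes were among them: the log2 fold changes with 1,2-DCB and 1,4-DCB were 3.54 and 4.06 for Dbp, 1.51 and 2.14 for Nr1d2, -2.29 and -2.92 for Arntl and -2.32 and -1.88 for Npas2. NRF2 targets were not called with 1,4-DCB for Nqo1 (1.88 ± 0.15 and 0.38 ± 0.17), Gstp1 (1.55 ± 0.14 and 0.08 ± 0.09) or Srxn1 (2.47 ± 0.29 and 0.24 ± 0.29). Isg15 (-2.41 ± 0.39 and 0.49 ± 0.34) and Col3a1 (-1.43 ± 0.19 and -0.38 ± 0.15) were likewise called with 1,2-DCB and not with 1,4-DCB.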

How the data were processed

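Rat S1500+ TempO-Seq values were deposited by the authors as attenuation-adjusted raw read counts, whole numbers per probe and library. Bowtie 1.3.1 is listed in the submitters' processing notes, and its role, the settings and build were not given in the sources used here. For 104 of 2654 probes every count is a multiple of a step above 1, so these rest on fewer reads than the totals show. Of them 18 were called, among the named genes Cyp2e1, Gclc, Fetub, Aldh1a1, Fgg, Mfap4, Ugt1a1, Col3a1, C7, Plau, Igj and 1 Aldoa probe. Of 2603 panel symbols, 2396 are current RefSeq symbols, 93 older and 114 unmatched. Whether a probe separates close paralogs was not given in the sources used here.

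All 39 used lung libraries of 1,2-DCB entered 1 edgeR 4.0.16 quasi-likelihood fit (robust, TMM, filterByExpr) in R 4.3.3. SE is the log2 fold change over the root of F. Levels are TMM-normalized CPM. Totals give counting error only: without molecular identifiers, reads are not separate molecules. The joint fit held 5 tissues at 0 and 500 ppm. Genes named were the 20 largest rises and 20 largest falls among called probes averaging 20 CPM or more in either group, up to 4 called members per list by smallest p, the cell markers, and genes differing from all 4 other tissues. Some carry 2 probes. Members and lists were chosen with earlier results of these data known. Checks on simulated data recovered 62.7, 73.1 and 92.4% of 1.5, 2 and 4-fold lung changes with 2 false calls over 2306 probes. For lung minus heart over 2501 probes these were 17.9, 38.8 and 66.7%, with 4 false calls. Alternatives used DESeq2 1.42.0, limma 3.58.1 voom, other filters, normalizations and sample sets, and a replicate block for rat in the tissue differences. Same-numbered libraries are tissues of 1 rat. Their deviations from group means correlated at a median of 0.115, 0.0757, 0.093 and 0.113 between lung and heart, kidney, liver and ovary.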

Additional observations from a re-analysis of the deposited data

Results flagged for a closer look

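In 7 groups of values 1 library stood apart from the rest (4.86% of the groups tested), where chance flags about 1 in 20. These were Tnc in rat F605 at 500 ppm, low at 2.38 CPM, and Arntl in rat F603 at 500 ppm, low at 8.34 CPM. At 0 ppm they were Sparc in F1, high at 1472 CPM, Oas1a in F6, high at 177 CPM, Cks2 and Npas2 in F7, high at 24.6 and 62.7 CPM, and Nrep in F7, low at 52.1 CPM. F7 has the lowest total of the 14 libraries. Pink1 stood out because its lung change, 0.94 in the joint fit, differed from those of heart, kidney, liver and ovary. The 500 ppm library left out of the comparisons lay beyond every control for 43 of the called probes, at 0.326 M counts.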

How the results depend on the processing

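Shares are of the 2306 probes tested in lung or the 2501 in the joint fit. At 500 ppm 8.85% were called. Other tools, filters, normalizations and sample sets gave 6.76% (mean of at least 20 CPM, where the calls were 13.2% of the 1178 probes that fit tested) to 9.89% (DESeq2), and leaving out 1 library gave 5.16% (rat F605, holding 55.9% of the original calls) to 9.19% (control F8). DESeq2 called 0.0434% at 10 ppm, 0.0867% at 30 ppm and 0.0434% at 100 ppm. At 30 ppm voom and a fit without the other concentrations called 0, and leaving out 1 library gave 0 (F304 or F305) to 0.0434%. At 100 ppm voom called 0.0434%, and leaving out 1 library gave 0 to 0.0434% (without F401, control F1 or control F8). Lung minus ovary was 3.68%, 6.28% with voom and 1.96% (F602) to 3.76% (F601) with 1 exposed rat left out, and 2.08 and 2.4% without F603 or F604. Lung minus kidney was 2.48%, 4.08% in a fit of those tissues alone and 1.64% (F603 or F605) to 3.4% (F601) with 1 rat out. Lung minus heart ran from 0.88 to 1.48% and lung minus liver from 34.5 to 39.1% with 1 rat out. With the replicate block for rat, the paired shares were 1.4% for heart, 3.56% for kidney, 40.9% for liver and 4.44% for ovary. Of 72 named probes, 50 kept their call in every alternative that tested them, 22 lost it in at least 1 and 0 reversed. Few counts limit precision for probes at a few CPM or less, Col1a1 among them. The cause of the changes between settings was not tested.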
